A study of Mus musculus with 8 samples.

Results

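The subject is a state of 4T1 cells that appeared in both backgrounds of the study: whatever set Tyro3-overexpressing parental cells and unedited resistant cells together, apart from parental cells and Tyro3-knockout resistant cells. 4T1 is a line of mouse mammary carcinoma cells, labelled as triple-negative breast cancer. All 8 libraries of the series entered the comparison, in 4 groups of 2. The parental group carried the genotype "control" with the phenotype of parental cells, and the Tyro3_OE group was the same cells with the genotype "Tyro3 OE". The resistant group had the genotype "control" in anti-PD1 resistant cells, and the Tyro3_KO group was Tyro3 KO in those resistant cells. Every group was grown in DMEM with serum and left untreated. The shared contrast is the mean log2 level of the Tyro3_OE and resistant groups minus the mean of the parental and Tyro3_KO groups. Beside it stand the differences within each background, Tyro3_OE minus parental and resistant minus Tyro3_KO, which have no library in common. The groups were set by the labels, with no measured value, and the contrast was proposed with earlier results of these data known.

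Tyro3, like its relatives Axl and Mertk, is a TAM receptor with tyrosine kinase activity, and binds the vitamin K-dependent ligands Gas6 and Pros1. Several of the gene groups below answer to well-known regulators. ATF4 is the transcription factor made when the integrated stress response slows translation, SREBP2 drives cholesterol synthesis genes when sterols are low, and E2F and FOXM1 drive genes of S phase and mitosis in dividing cells. Interferon-stimulated genes and class I presentation genes respond to interferons through IRF and related factors.

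Counted reads per library ranged from 18001482 to 27261282, and after low-count genes were removed 14513 were tested. Levels are given as CPM, TMM-scaled read counts, and changes as log2 fold changes. A gene was called at an adjusted p under 0.05 in edgeR's quasi-likelihood test, adjusted by Benjamini-Hochberg over all tested genes. Whether both libraries of a group are separate cultures is not stated in the labels, and the p-values therefore speak of the spread among these samples only, which could be technical. Beyond counting noise that spread was small, with a coefficient of variation of 3.51% in 1 common estimate over all tested genes. Counting noise adds to it, most for genes with few reads. How Tyro3 was overexpressed or knocked out, and whether a line was 1 clone or a pool, is not given in the sources used here. Each group stands for 1 labelled line state, so the genotype and anything else that set its cells, culture or library preparation apart cannot be told apart. Genes of ribosomal proteins took 8.81% and 9.12% of the reads of resistant libraries and 5.09% to 6.07% of the others. Mitochondrially encoded genes took 2.98% and 3.23%, compared with 1.99% to 2.42%. Their part in the results was not tested. The labelled cell type was carried by the keratins Krt8 and Krt18, at 217 to 540.2 and 257 to 442 CPM, while the epithelial adhesion genes Epcam and Cdh1 stayed at or below 1.32 and 4.01 CPM. Of the leukocyte markers, Ptprc, Adgre1, Itgam and C1qa had 0 to 3 reads a library, and Csf1r and Lyz2 had at most 15 and 14. Of the macrophage markers 3 passed the filter. Cd14 and Mrc1 were lower in both backgrounds and 1 was higher in the shared contrast, as described with the marker lists. Of the 10 lymphocyte markers 4 were in the deposited counts. They summed to 0.05 to 0.50 CPM, and no member was tested.

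Tyro3 (chr2:119797733-119818104, GRCm38) had 25.7 and 24.4 CPM in parental, 3.81 and 3.99 in Tyro3_KO, 107 and 103 in Tyro3_OE and 20.7 and 21.2 in resistant libraries. It was high in Tyro3_OE and low in Tyro3_KO, but the resistant libraries lay below the parental ones, so the 2 sides of the shared contrast overlapped for Tyro3 itself. Its log2 fold change was 2.25 (SE 0.065) in the shared contrast, 2.07 (SE 0.071) in the parental and 2.43 (SE 0.11) in the resistant background, and 44.5% of its between-group sum of squares lay on the shared contrast. Axl, another TAM receptor, was lower in the shared contrast (-0.6 (SE 0.029)), with 1297 and 1290.1 CPM in Tyro3_OE and 759 and 719.9 in resistant libraries, against 1509 and 1549 in parental and 1436 and 1433 in Tyro3_KO libraries. The Axl fall was larger in the resistant background, where it reached -0.96 against -0.24 in the parental one (difference 0.71 (SE 0.058), adjusted p = 2.91e-14). Mertk was at or under 2.52 CPM in every library and rose in the resistant background by its own test (-0.11 and 2.62 in the parental and resistant background, adjusted p of the difference 9.09e-04). The ligand gene Pros1 fell by 0.96 in the shared contrast, with 27.5 and 29.8 CPM in Tyro3_OE and 17.1 and 15 in resistant libraries, against 30.6 and 31.9 in parental and 58.2 and 53.5 in Tyro3_KO libraries. Pros1 was called lower within the resistant background and was not called within the parental one. Of the 8 listed TAM genes 7 were in the deposited counts and 5 passed the filter. Of those 5, 1 was called higher in both backgrounds (Tyro3) and 2 lower (Axl and Lgals3, a galectin that can bind Mertk). The median of the list was -0.52, and 0.75 when all genes were kept without a filter. Over all tested genes 22.5% were higher and 25.9% lower in both backgrounds, and 6.55% were called in opposite directions. The counts of each list below are read against these shares.

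The shared contrast was the main direction of difference among the 4 groups. On the first principal component, which held 61.0% of the variance, the parental and Tyro3_KO libraries lay between -54.7 and -52.4, the Tyro3_OE libraries at 33.9 and 34.3 and the resistant libraries at 71.6 and 73.9. The sum of squares between group means of log2 CPM, over all tested genes, divided into 65.5% on the shared contrast, 18% on the contrast of backgrounds (resistant and Tyro3_KO against parental and Tyro3_OE) and 16.5% on the crossed remainder. The shared contrast held the largest share of a gene's sum of squares for 9722 of the 14513 genes, the contrast of backgrounds for 2522 and the crossed remainder for 2269. A largest share need not be most of the sum. In the test, 11085 genes (76.4%) were called in the shared contrast, 5536 higher (38.1%) and 5549 lower (38.2%), and 3282 (22.6%) by at least 1 on the log2 scale. The contrast of backgrounds called 7198 genes (49.6%), of which 688 (4.74% of all genes) reached 1. The median absolute log2 fold change over all genes was 0.516 for the shared contrast and 0.207 for the contrast of backgrounds. Put pairwise, the median was 0.219 between Tyro3_KO and parental cells and 0.321 between resistant and Tyro3_OE cells. Those pairs differed in 5274 (36.3%) and 8029 genes (55.3%), so libraries on the same side were not alike.

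Within the parental background 9613 genes (66.2%) were called, 32.5% of tested genes higher and 33.7% lower, and within the resistant background 10552 (72.7%), 35.6% higher and 37.1% lower. Of these, 3263 were higher in both (22.5% of tested genes) and 3762 lower in both (25.9%), while 950 (6.55%) were called in opposite directions. Genes called the same way in both (48.4% of tested genes) made up 73.1% of the calls in the parental background and 66.6% of those in the resistant one. The separation was complete for many genes: 3647 (25.1%) had all 4 Tyro3_OE and resistant libraries above all 4 parental and Tyro3_KO libraries, and 3836 (26.4%) had all 4 below. The 2 differences had a Pearson correlation of 0.576 and a Spearman correlation of 0.655 across the 14513 genes, which are not independent replicates, and a Pearson correlation of 0.687 across the 9127 genes with a mean of at least 10 CPM. Without the filter the Pearson correlation was 0.218 over 24677 genes. The changes were not equal in size. The difference between backgrounds was itself called for 6776 genes (46.7%), and of the 7025 genes called the same way in both, 3322 (22.9% of tested genes) also differed in size, 2306 with the larger change in the resistant background and 1016 with the larger one in the parental background. Upper-quartile scaling moved the median of all genes in the shared contrast from 0.033 to 0.18 and the share of shared calls that were higher from 49.94% to 59.95%, so changes below are read against that shift.

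**Figure D1:**
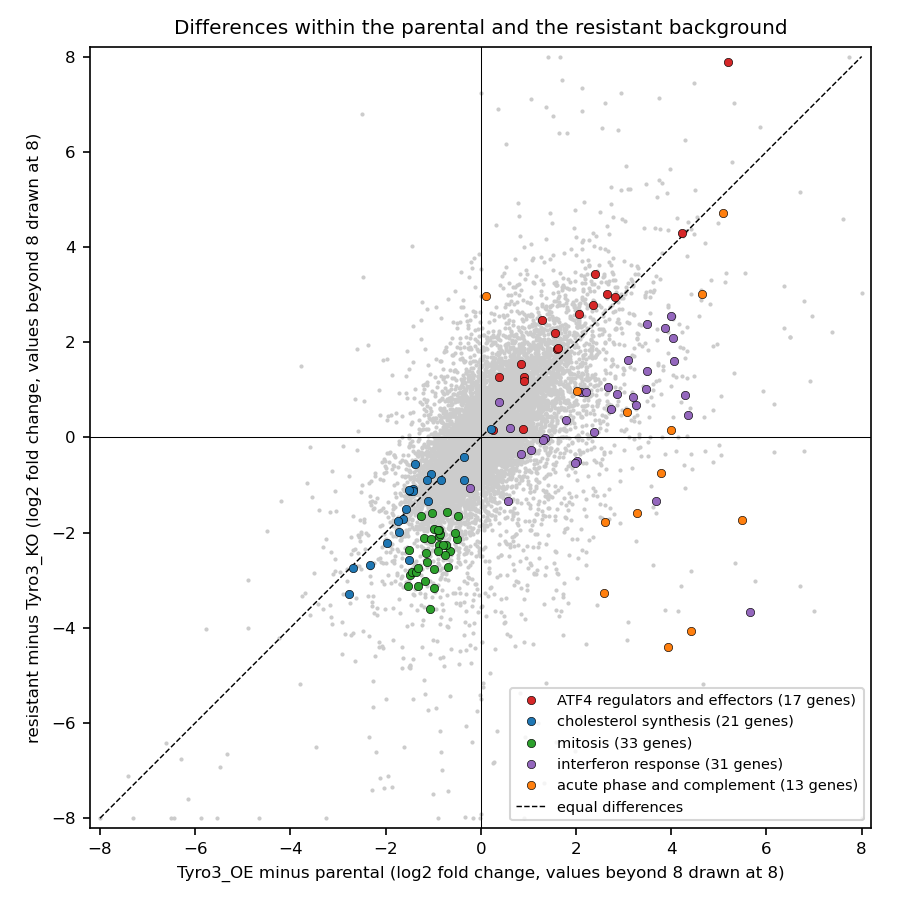
Each point is 1 of the 14513 tested genes, with the log2 fold change of Tyro3_OE over parental cells on the horizontal axis and of resistant over Tyro3_KO cells on the vertical axis; values beyond 8 are drawn at 8 and the dashed line marks equal differences. Coloured points are tested members of 5 lists: the ATF4 genes lie to the upper right and the cholesterol synthesis genes, but for 1, to the lower left near the line, the mitosis genes lie below the line, and acute phase genes spread to the lower right.

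The rises found in both backgrounds were led by 3 genes with few reads in parental and Tyro3_KO libraries. P2rx3, an ATP-gated ion channel best known from sensory neurons, had 7.25 and 6.89 CPM in Tyro3_OE and 21.6 and 17.7 in resistant libraries, against 0 and 0.0513 in parental and 0 and 0.101 in Tyro3_KO libraries. Its fitted change was 8.18 (SE 0.28). The libraries of the 2 sides did not overlap, which the rule for this ranking required of every gene in it. The lower groups held 1 read in parental and 2 in Tyro3_KO libraries, so by counting error alone the ratio was 257 in the parental background (exact 95% interval 45.8 to 10170) and 447 in the resistant one (123 to 3700). The fitted change was 9.47 without parental replicate 2 and 9.75 without Tyro3_KO replicate 2. Soat2, which esterifies cholesterol for storage, had 8.46 and 8.26 CPM in Tyro3_OE and 11.5 and 9.65 in resistant libraries, against 0 and 0.257 in parental and 0.117 and 0.101 in Tyro3_KO libraries, a fitted change of 6.19 (SE 0.25). Its low side rested on 5 reads in each group, and without parental replicate 2 the fitted change was 8.53. Angptl6, a secreted angiopoietin-like protein, had 23.1 and 22.3 CPM in Tyro3_OE and 47.7 and 42.3 in resistant libraries, against 0.594 and 0.565 in parental and 0.971 and 0.606 in Tyro3_KO libraries, a change of 5.53 (SE 0.12). For these 3 genes the difference between backgrounds was not called (adjusted p 0.35 to 0.772), and 97.6% to 99.8% of their between-group sum of squares lay on the shared contrast. So few reads on the low side of P2rx3 and Soat2 left that test little room to call a difference, so equal changes do not follow. Ranking by the smaller within-background change also favours genes with a high share. Lbp, the lipopolysaccharide-binding protein of the acute phase, rose by 4.89 (SE 0.11) and Pi16, a peptidase inhibitor gene, by 4.59 (SE 0.17). Further down the same ranking stood Myo7a, an unconventional myosin, at 4.33, and Serpinf1, which encodes the secreted factor PEDF, at 4.4. Zfr2 rose by 4.36, Adgrb2, an adhesion G protein-coupled receptor, by 3.34, Hid1, a gene of dense-core vesicle formation, by 3.25 and Macrod1, an ADP-ribosyl hydrolase, by 3.18.

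The falls were led by Prl2c3 and Prl2c2, proliferin genes of the prolactin family. Prl2c3 had 0.362 and 0.160 CPM in Tyro3_OE and 0.0885 and 0 in resistant libraries, against 42.5 and 42.3 in parental and 70.7 and 76 in Tyro3_KO libraries, a fitted change of -8.91 (SE 0.14). Resistant libraries held 2 reads of it in all, a Tyro3_KO to resistant ratio of 1635 (exact 95% interval of counting error 452 to 13502). The fitted change was -10.49 without resistant replicate 1. Prl2c2 had no read in either resistant library, against 16.2 and 16.9 CPM in Tyro3_KO, and was at least 123.5-fold lower there at a floor of 3 reads per library. It was also low in Tyro3_OE (0.0805 and 0.0401 CPM, against 5.82 and 6.11 in parental libraries), where 3 reads gave a parental to Tyro3_OE ratio of 99.2 (33.5 to 485). The 2 genes are near-identical copies, so reads may have been split between them and each value is uncertain. Wnt7a, a Wnt ligand, had 0.846 and 1.64 CPM in Tyro3_OE and 0.442 and 0.180 in resistant libraries, against 24.5 and 22.5 in parental and 6.18 and 5.60 in Tyro3_KO libraries, and fell by about the same amount in both backgrounds (-4.23 and -4.22). Id2, which blocks basic helix-loop-helix factors, fell by 2.86 in the parental and by 4.13 in the resistant background, with 3.79 and 2.77 CPM in Tyro3_OE and 1.77 and 1.17 in resistant libraries, against 21 and 26.4 in parental and 26.7 and 25 in Tyro3_KO libraries. The protease gene Klk10 (-3.66), the scaffold gene Shank2 (-3.46), S100a7a (-3.54), the magnesium transporter gene Nipal1 (-3.46) and the nucleotide receptor gene P2ry2 (-2.99) also stood in this group, as did the cholesterol synthesis genes Idi1 and Hsd17b7, described below.

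Genes of the ATF4 program were higher throughout. All 17 members that passed the filter, of 19 listed, were called higher in both backgrounds, and all 17 had their 4 Tyro3_OE and resistant libraries above the other 4, against 22.5% and 25.1% of all tested genes. The median change was 1.88 (1.80 with Fgf21 at its bound), beside 0.03 over all genes. Atf4 itself had 341 and 353 CPM in parental, 243 and 241 in Tyro3_KO, 633 and 621 in Tyro3_OE and 715 and 694 in resistant libraries. All 4 Tyro3_OE and resistant libraries were above the others, with changes of 0.85 (SE 0.040) in the parental and 1.54 (SE 0.040) in the resistant background. Trib3, a pseudokinase that ATF4 and CHOP induce, had 27.3 and 27.8 CPM in parental, 27 and 28.9 in Tyro3_KO, 533 and 503 in Tyro3_OE and 547 and 541 in resistant libraries. The Tyro3_OE and resistant libraries were all near 1 level and so were the parental and Tyro3_KO libraries, with changes of 4.23 (SE 0.053) in the parental and 4.29 (SE 0.051) in the resistant background and an adjusted p of the shared contrast of 3.14e-51. Ddit3, which encodes the stress factor CHOP, had 65.9 and 74.5 CPM in Tyro3_OE and 75.6 and 79.6 in resistant libraries, against 12.6 and 9.81 in parental and 9.33 and 10.1 in Tyro3_KO libraries, with no overlap and a change of 2.83 (SE 0.063). Atf5, another bZIP factor of this response, rose by 2.88 (SE 0.033), the stress-induced sestrin gene Sesn2 by 2.57 (SE 0.060), the chromatin protein gene Nupr1 by 2.33 (SE 0.045) and the glutathione-degrading enzyme gene Chac1 by 1.88 (SE 0.037). Chac1 rose more in the resistant background (1.3 and 2.47 in the parental and resistant background, adjusted p of the difference 2.06e-17). Ppp1r15a, which encodes the eIF2 phosphatase subunit GADD34, rose by 1.88, Atf3 by 1.75 and Ddit4, an inhibitor of mTORC1, by 1.73. At the low end were Cebpb (0.53) and the tRNA exporter gene Xpot (0.2). Fgf21, a stress hormone, had no read in the parental and Tyro3_KO libraries and 1.19 and 1.49 CPM in resistant ones, at least 10.0-fold higher at a floor of 3 reads per library, and 0.362 and 0.0401 CPM in Tyro3_OE.

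The promoters of 2 of these genes are shown because they held the ATF4 motif and their genes had the smallest p-values among the members whose window did. The windows run from 250 bases before to 50 bases after the RefSeq start, in GRCm38.p6, written 5′ to 3′ on the gene's strand, and capitals mark the match. Trib3 lies at chr2:152344011-152344310 (minus strand) and Nupr1 at chr7:126625421-126625720 (minus strand).
Trib3: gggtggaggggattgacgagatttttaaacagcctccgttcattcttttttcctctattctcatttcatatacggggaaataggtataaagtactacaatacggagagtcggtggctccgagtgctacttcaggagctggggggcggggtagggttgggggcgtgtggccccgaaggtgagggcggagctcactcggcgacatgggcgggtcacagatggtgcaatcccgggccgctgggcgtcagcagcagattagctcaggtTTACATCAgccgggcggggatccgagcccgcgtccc
Nupr1: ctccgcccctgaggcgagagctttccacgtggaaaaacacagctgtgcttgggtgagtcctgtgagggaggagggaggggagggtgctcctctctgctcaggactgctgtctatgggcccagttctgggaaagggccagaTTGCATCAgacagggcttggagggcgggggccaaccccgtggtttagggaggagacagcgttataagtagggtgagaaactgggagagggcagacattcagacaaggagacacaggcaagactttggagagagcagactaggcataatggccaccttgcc
The motif searched was TGATGNAA on both strands. It stood in 16 of the 52 promoters found for the 69 members of the ATF4, amino acid synthesis, amino acid transport and tRNA synthetase lists (30.8%), beside 4.51% of the 27025 genes in the RefSeq table. A match describes letters and not binding.

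Amino acid genes, of which several are known ATF4 targets, divided. Among the 16 tested synthesis genes of 17 listed, 7 were higher in both backgrounds and 6 lower. Asns, the asparagine synthetase, had 331 and 337 CPM in Tyro3_OE and 335 and 328 in resistant libraries, against 134 and 133 in parental and 119 and 113 in Tyro3_KO libraries, a change of 1.42 (SE 0.030) with the groups apart. Aldh1l2, a mitochondrial folate enzyme, rose by 2.63 (SE 0.067), the alanine aminotransferase gene Gpt2 by 2.38 (SE 0.050), and the proline synthesis gene Pycr1 by 2.17 (SE 0.14). The serine synthesis genes Phgdh and Psat1 were at -0.14 and -0.26, and the folate genes Mthfd1, Mthfd1l and Shmt1 fell by 1.31, 1.17 and 0.97. Of the 14 tested transporters of 15 listed, 8 were higher in both and 3 lower, with a median of 0.61. The glycine transporter gene Slc6a9 rose by 2.06 (SE 0.049), and the cystine transporter pair Slc7a11 and Slc3a2 rose by 1.09 and 1.12. Slc7a11 had 182 and 185 CPM in Tyro3_OE and 316 and 289 in resistant libraries, against 81.1 and 88.6 in parental and 144 and 145 in Tyro3_KO libraries, so the parental and Tyro3_KO libraries also differed from each other. The glutamine transporter gene Slc1a5 was lower, at -0.43. All 20 listed cytosolic tRNA synthetases were tested, and 7 were higher and 7 lower in both, the latter count being 4 with upper-quartile scaling. The serine and alanine enzymes Sars and Aars rose by 1.14 and 0.84, while Farsa, Hars and Kars fell by 1.22, 1.06 and 0.93.

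**Figure D2:**
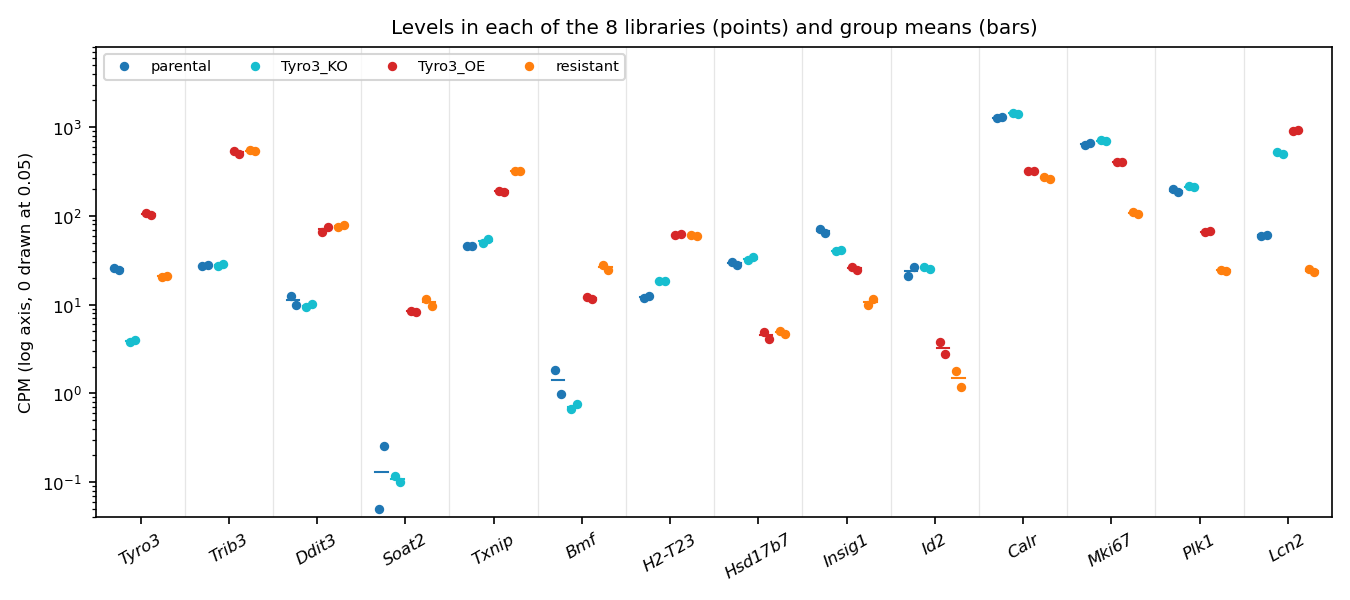
Points are the CPM of 14 genes in each of the 8 libraries on a log axis, coloured by group, with a bar at each group mean and 0 drawn at 0.05. The Tyro3_OE and resistant libraries lie together above the other groups for Trib3 and Soat2 and below them for Hsd17b7, resistant cells lie lowest for Mki67 and Plk1, and for Lcn2 the Tyro3_OE and Tyro3_KO libraries are the high ones.

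Cholesterol synthesis genes were lower almost as a block. All 21 listed genes were tested and 20 were called lower in both backgrounds, against 25.9% of all genes, with a median of -1.31 in the shared contrast, -1.49 in the parental and -1.14 in the resistant background. The 1 gene called higher was Ggps1, which makes geranylgeranyl diphosphate outside the sterol branch, at 0.19; its call in both backgrounds was lost with DESeq2, without the filter and with any 1 library but parental replicate 2 left out. The shared contrast held 89.3% of the list's sum of squares. Hsd17b7, which reduces a late intermediate of the pathway, had 29.9 and 28.1 CPM in parental, 31.4 and 34.3 in Tyro3_KO, 4.87 and 4.13 in Tyro3_OE and 5.09 and 4.64 in resistant libraries. The Tyro3_OE and resistant libraries lay together below the other 4, with changes of -2.69 (SE 0.12) in the parental and -2.75 (SE 0.11) in the resistant background. Idi1, the isopentenyl isomerase, had the largest fall in the list, -3.03 in the shared contrast, with 8.86 and 8.38 CPM in Tyro3_OE and 3.49 and 3.02 in resistant libraries, against 59.9 and 57.7 in parental and 33.7 and 30.4 in Tyro3_KO libraries. Cyp51 fell by 2.10, Acat2 by 2.05 and Nsdhl by 1.85. Hmgcs1 and Sqle, the HMG-CoA synthase and the squalene epoxidase, fell by 1.31 and 1.01.

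Genes of sterol uptake, export and storage were split. Of the 13 tested members, of 16 listed, 5 were higher and 5 lower in both backgrounds, with a median of -0.017. On the shared contrast lay 94.9% of their sum of squares, a sum in which large changes weigh most. Shared changes ran from -2.85 to 6.19, the latter for Soat2, whose low side rested on few reads. Insig1, which retains SREBP in the endoplasmic reticulum and is itself an SREBP target, had 70.4 and 64.4 CPM in parental, 40.1 and 40.9 in Tyro3_KO, 26.7 and 24.4 in Tyro3_OE and 9.86 and 11.5 in resistant libraries, a change of -1.66 (SE 0.059), and Stard4, a sterol carrier gene, was at -1.39. Srebf2, the gene for SREBP2, had 129 and 125 CPM in Tyro3_OE and 114 and 112 in resistant libraries, against 230.1 and 227 in parental and 186 and 201 in Tyro3_KO libraries, and its escort gene Scap was at -0.51. The higher members, beside Soat2, were Mylip, a ubiquitin ligase gene known as a target of LXR, at 2.22 (SE 0.065), the sterol exporter gene Abcg1 at 1.15 (SE 0.086), Insig2 at 0.88 and the lysosomal cholesterol exporter gene Npc1 at 0.6. Fatty acid genes were less uniform. Of 16 tested, 7 were lower and 1 was higher in both backgrounds, a count of higher genes that ranged from 1 to 4 over the other settings. Fasn, the fatty acid synthase, had 346 and 349 CPM in Tyro3_OE and 284 and 282 in resistant libraries, against 1011 and 1028 in parental and 1109.5 and 1127 in Tyro3_KO libraries, a change of -1.77 (SE 0.029), and the elongase gene Elovl6 fell by 1.88. Acacb, the mitochondrial acetyl-CoA carboxylase, was the member called higher in both (2.42 (SE 0.13)). Srebf1, the gene for SREBP1, was not called in the shared contrast (-0.065 (SE 0.032)), being higher in Tyro3_OE and lower in resistant cells (0.31 and -0.44).

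The promoter of Hmgcs1 is shown as the only window of the cholesterol, sterol and fatty acid lists that held the sterol response motif, searched as TCACNCCAC on both strands. It lies at chr13:119690101-119690400 (plus strand).
Hmgcs1: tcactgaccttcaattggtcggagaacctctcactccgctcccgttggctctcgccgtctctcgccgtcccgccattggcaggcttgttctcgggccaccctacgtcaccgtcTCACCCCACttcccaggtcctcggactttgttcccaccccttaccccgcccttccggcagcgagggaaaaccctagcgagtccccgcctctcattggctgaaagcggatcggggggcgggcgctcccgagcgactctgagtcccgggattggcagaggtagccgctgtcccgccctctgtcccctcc
Of the 52 members of these lists 38 were found in the table, and 1 held the motif (2.63%, beside 1.44% of all genes in the table). No match says only that these letters are not in the window.

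Cell cycle genes were lower in both backgrounds, more so in the resistant one. All 33 listed mitosis genes were tested, all 33 were called lower in both, and all 33 had their Tyro3_OE and resistant libraries below the other 4, against 25.9% and 26.4% of all genes. The median was -0.98 in the parental and -2.36 in the resistant background, and the difference between backgrounds was called for each of the 33, against 46.7% of all genes. Mki67, the proliferation antigen, had 625 and 668 CPM in parental, 719 and 689 in Tyro3_KO, 403 and 403 in Tyro3_OE and 109 and 105 in resistant libraries. Parental and Tyro3_KO libraries were highest, Tyro3_OE next and resistant lowest, with no overlap between those 3 levels, and with changes of -0.68 (SE 0.041) in the parental and -2.72 (SE 0.045) in the resistant background and a difference of 2.03 (SE 0.060) (adjusted p = 8.78e-30). Plk1, a kinase of mitotic entry, had 201 and 184 CPM in parental, 217 and 211 in Tyro3_KO, 66 and 66.6 in Tyro3_OE and 24.8 and 24.2 in resistant libraries, in the same order. Cdc20, an activator of the anaphase-promoting complex, fell by 2.19 in the shared contrast, its ubiquitin-conjugating enzyme Ube2c by 1.94, the survivin gene Birc5 by 2.22, cyclin B1 (Ccnb1) by 2.13 and the kinetochore gene Nuf2 by 2.34. Cdk1, which drives mitosis with cyclin B, fell by 1.25 in the parental and by 1.66 in the resistant background. FOXM1 itself (Foxm1) was at -0.51 and -2.13. By library, Cdc20 had 99.7 and 98.3 CPM in Tyro3_OE and 44 and 47.2 in resistant libraries, against 286 and 266 in parental and 339.9 and 338 in Tyro3_KO libraries.

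Of the 38 listed DNA replication genes, all tested, 31 were lower in both backgrounds, with medians of -0.57 in the parental and -1.61 in the resistant background; in the shared contrast 36 were called lower and 1, the licensing factor gene Cdt1, higher (0.15). By the tests within each background 31 fell in the parental and 37 in the resistant one. Rrm2, the ribonucleotide reductase subunit, had 470.3 and 465 CPM in parental, 509 and 513 in Tyro3_KO, 170.5 and 167 in Tyro3_OE and 43.4 and 45.7 in resistant libraries, a change of -2.5 (SE 0.031). The helicase subunit gene Mcm6 was also unequal, at -0.17 and -1.9 in the parental and resistant background. Thymidine synthesis genes Tk1 and Tyms fell by 2.03 and 1.87, cyclin E genes Ccne1 and Ccne2 by 1.66 and 1.81, and Pcna, the sliding clamp, by 0.79. Among 13 tested genes of G1 cyclins and CDK inhibitors, of 16 listed, 5 were higher and 6 lower in both. The retinoblastoma gene Rb1 had 23.8 and 23 CPM in Tyro3_OE and 23.7 and 21.2 in resistant libraries, against 9.38 and 10.1 in parental and 7.23 and 7.42 in Tyro3_KO libraries, a rise of 1.44 (SE 0.077), and the CDK inhibitor gene Cdkn1b (p27) rose by 0.78 (SE 0.033) and the Rb1 relative Rbl2 by 0.65. Cyclin D1 (Ccnd1) fell by 0.96 and Cdkn2c (p18) by 1.22. Ccnd2 was high in resistant libraries alone, with 3.83 and 4.01 CPM in Tyro3_OE and 35.5 and 31.7 in resistant libraries, against 3.62 and 3.13 in parental and 5.25 and 5.81 in Tyro3_KO libraries.

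For 2 mitosis genes with the smallest p-values among those holding it, the promoters are given with the core of the cell cycle homology region, searched as TTTGAA on both strands. Cdc20 lies at chr4:118437294-118437593 (minus strand) and Ube2c at chr2:164769679-164769978 (plus strand).
Cdc20: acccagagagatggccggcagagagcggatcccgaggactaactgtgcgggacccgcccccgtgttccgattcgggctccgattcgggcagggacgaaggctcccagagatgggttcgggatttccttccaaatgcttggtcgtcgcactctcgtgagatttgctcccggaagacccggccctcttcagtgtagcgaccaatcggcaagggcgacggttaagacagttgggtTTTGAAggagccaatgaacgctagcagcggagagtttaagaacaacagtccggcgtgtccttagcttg
Ube2c: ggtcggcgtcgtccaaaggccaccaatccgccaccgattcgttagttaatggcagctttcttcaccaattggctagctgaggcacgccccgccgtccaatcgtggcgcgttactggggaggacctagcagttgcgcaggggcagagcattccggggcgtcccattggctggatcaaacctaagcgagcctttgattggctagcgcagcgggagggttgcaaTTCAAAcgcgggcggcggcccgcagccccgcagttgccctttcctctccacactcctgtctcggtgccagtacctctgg
In the table were 58 of the 71 mitosis and replication genes, and 23 of them held the motif (39.7%, beside 20.2% of all genes). The match began at position -18 relative to the start in Cdc20 and at -29 in Ube2c.

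Genes linked to nutrient withdrawal and to low AKT activity were higher. Of the 19 tested members of the FOXO, MondoA and starvation list, of 22 listed, 14 were higher and 2 lower in both backgrounds (73.7% and 10.5%, beside 22.5% and 25.9% of all tested genes), with a median of 1.27 and 93.5% of the sum of squares on the shared contrast. Txnip, a MondoA target that limits glucose uptake, had 45.7 and 45.3 CPM in parental, 48.9 and 55.1 in Tyro3_KO, 193 and 187 in Tyro3_OE and 323 and 323 in resistant libraries. The resistant libraries were highest, Tyro3_OE next, and the other 4 lay apart below, with changes of 2.06 (SE 0.052) in the parental and 2.64 (SE 0.049) in the resistant background. Fbxo32, a FOXO target known as atrogin-1 in muscle, had 37.8 and 36.9 CPM in Tyro3_OE and 40.03 and 34.2 in resistant libraries, against 5.34 and 5.19 in parental and 5.87 and 5.96 in Tyro3_KO libraries, with nearly the same change in both backgrounds (2.83 and 2.65). Pik3ip1, an inhibitor of PI3K, rose by 2.84 (SE 0.14), Mxd4, a MAX-binding antagonist of MYC, by 2.55 (SE 0.076), the leucine zipper gene Tsc22d3 by 1.81 (SE 0.070) and Foxo1 by 1.3 (SE 0.071). The arrestin gene Arrdc4 rose by 1.6, while its relative Arrdc3 and the sestrin gene Sesn1 fell by 0.58 and 0.50.

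In the lysosome and autophagy list 17 of 29 tested genes, of 30 listed, were higher in both backgrounds and 2 lower (58.6% and 6.90%, beside 22.5% and 25.9% of all tested genes), with a median of 0.42. The autophagy receptor gene Sqstm1 (p62) had 2292 and 2270.0 CPM in Tyro3_OE and 2618 and 2551 in resistant libraries, against 810.5 and 828 in parental and 883 and 885 in Tyro3_KO libraries, a rise of 1.51 (SE 0.029) for which the difference between backgrounds was not called (adjusted p = 0.333). Map1lc3a, an LC3 gene of the autophagosome membrane, rose by 2.02 (SE 0.060) and the lysosomal hydrolase gene Naglu by 1.95 (SE 0.071). Gusb, the lysosomal glucuronidase, went the other way, at -1.57 (SE 0.035). Of 12 tested BCL2 family genes, of 15 listed, 5 were higher and 6 lower in both. Those higher included 3 BH3-only genes, whose products promote apoptosis: Bmf, Bbc3 (PUMA) and Bcl2l11 (BIM), at 4.16, 1.99 and 0.89. Bmf had 12 and 11.5 CPM in Tyro3_OE and 28.2 and 24.8 in resistant libraries, against 1.84 and 0.975 in parental and 0.661 and 0.757 in Tyro3_KO libraries. The pore-forming genes Bax and Bak1 fell by 0.83 and 0.84, the antiapoptotic genes Mcl1 and Bcl2l1 by 0.41 and 0.44, and Bcl2 rose by 0.64. In the p53 list, 5 of 19 tested genes, of 22 listed, were higher and 7 lower in both, with a median of -0.41. These are 26.3% and 36.8%, not far from 22.5% and 25.9% of all tested genes. Trp53inp1, a stress protein gene, had 77.8 and 76.7 CPM in Tyro3_OE and 104 and 95.4 in resistant libraries, against 8.61 and 9.86 in parental and 12.2 and 11.5 in Tyro3_KO libraries, a rise of 3.06 (SE 0.057), and Trp53 itself rose by 1.54 (SE 0.037). The nuclease gene Aen, the kinase gene Plk2 and the death receptor gene Tnfrsf10b fell by 1.23, 1.11 and 0.88, and Mdm2, a p53 target and inhibitor, was at -0.089 (SE 0.036).

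Chaperone genes of both compartments were lower. Of 19 tested heat shock genes, of 20 listed, 17 were lower and 1 higher in both backgrounds, with medians of -0.90 and -0.88. Hspa8, the constitutive HSP70, had 3318 and 3397 CPM in parental, 3805 and 3671 in Tyro3_KO, 1229.9 and 1252 in Tyro3_OE and 1064 and 965 in resistant libraries. The 4 parental and Tyro3_KO libraries lay well above the others, and the change was -1.66 (SE 0.032). The stress-induced Hspa1b fell by 1.80, the nucleotide exchange factor gene Hsph1 by 1.73 and the mitochondrial chaperonin gene Hspd1 by 1.22. Hsp90ab1, the constitutive HSP90, fell by 0.84. Of the 22 genes of endoplasmic reticulum chaperones and the unfolded protein response, all tested, 14 were lower and 7 higher in both. Among the lower ones were chaperones and a disulfide isomerase: Calr had 319.6 and 323 CPM in Tyro3_OE and 276 and 257 in resistant libraries, against 1266 and 1300.0 in parental and 1434 and 1415 in Tyro3_KO libraries, a change of -2.21 (SE 0.031), Hsp90b1 (GRP94) fell by 1.5, Pdia3 by 1.20 and Hspa5 (BiP) by 0.56. Among the higher ones were stress sensors and their targets, Ern1 (IRE1) at 1.45 (SE 0.037), its target Xbp1 at 1.05 (SE 0.045), Eif2ak3 (PERK) at 0.55 and the degradation gene Herpud1 at 1.19.

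Glycolysis genes were lower as well. All 16 listed were tested, with 13 lower and 1 higher in both backgrounds and a median of -0.65. Ldha, which makes lactate, had 491 and 480.0 CPM in Tyro3_OE and 568 and 562 in resistant libraries, against 1311 and 1210.5 in parental and 1550.4 and 1599 in Tyro3_KO libraries, and fell by 1.38 in the parental and by 1.48 in the resistant background. The pyruvate kinase gene Pkm fell by 1.18, Tpi1 by 1.21 and Pgk1 by 1.06. The hexokinase gene Hk2 was the 1 member higher in both (0.3 (SE 0.033)), though the Tyro3_KO libraries lay above the Tyro3_OE ones, at 98.6 and 108 CPM in parental, 149 and 148 in Tyro3_KO, 127 and 129 in Tyro3_OE and 188 and 178 in resistant libraries. The hypoxia list did not move as a block, with 5 of 17 tested members, of 20 listed, higher in both and 4 lower (29.4% and 23.5%, near 22.5% and 25.9% of all tested genes) and a median of 0.24. Vegfa, the endothelial growth factor gene, which also answers to ATF4, had 326 and 328 CPM in Tyro3_OE and 777 and 768 in resistant libraries, against 72 and 76.6 in parental and 101 and 107 in Tyro3_KO libraries, a rise of 2.52 (SE 0.031). Of 26 NRF2 targets, all tested, 5 were higher and 12 lower in both and 7 were called in opposite directions, with a median of -0.55 in the parental and 0.22 in the resistant background. Nqo1, the quinone reductase, fell by 2.22 in the parental and by 0.74 in the resistant background, Prdx1, a peroxiredoxin, by 1.23 and 1.16, and the glutathione transferase gene Gstm1 rose by 1.24 (SE 0.075). In the list of ferroptosis defence and iron genes, 5 of 16 tested, of 17 listed, were higher in both backgrounds and 6 lower, with a median of 0.036. These are 31.25% and 37.5%, not far from 22.5% and 25.9% of all tested genes. Tfrc, the transferrin receptor, had 222 and 207 CPM in Tyro3_OE and 159.8 and 158 in resistant libraries, against 743 and 719 in parental and 797 and 813 in Tyro3_KO libraries, a change of -2.05 (SE 0.030), and the iron exporter gene Slc40a1 rose by 4.2 (SE 0.32) from at most 0.738 CPM. Its 2 reads in parental libraries gave a Tyro3_OE to parental ratio of 38.7 (exact 95% interval of counting error 10.4 to 323). Gpx4, the lipid peroxide reductase, was at 0.51 and 0.51 in the 2 backgrounds.

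Most interferon-response genes were higher on the shared contrast, with much larger rises in the parental background and a divided result in the resistant one. Of 31 tested, of 35 listed, 27 were called higher and 2 lower in the shared contrast, 17 higher and 1 lower in both backgrounds, and 5 in opposite directions. Within the parental background 30 were called higher and 1 lower, and within the resistant one 17 higher and 6 lower. The median was 1.59 (1.66 with Oas2 at its bound), from 2.74 in the parental and 0.68 in the resistant background. The difference between backgrounds was called for 28 of 31, beside 46.7% of all tested genes. The list summed to 1094 and 1078 CPM in Tyro3_OE, against 513.2 and 489.6 in parental libraries. Its sum was lower in resistant libraries (584.5 and 581.3 CPM) than in Tyro3_KO libraries (702.1 and 668.4). Rsad2 (viperin) had 15.1 and 14.9 CPM in Tyro3_OE and 6.28 and 5.28 in resistant libraries, against 1.37 and 0.565 in parental and 1.28 and 0.606 in Tyro3_KO libraries, and Ifit1 had 19.5 and 17.3 CPM in Tyro3_OE and 4.38 and 5.14 in resistant libraries, against 2.97 and 1.44 in parental and 1.67 and 1.36 in Tyro3_KO libraries. Both rose in each background, with Tyro3_OE highest. Isg15, a ubiquitin-like protein gene, rose in Tyro3_OE by 2.38 and was at 0.11 in the resistant background, with 5.23 and 5.54 CPM in parental, 6.92 and 7.72 in Tyro3_KO, 29.4 and 26.8 in Tyro3_OE and 7.30 and 8.48 in resistant libraries.

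The class I presentation list went mostly up. Of 19 genes, all tested, 11 were higher in both backgrounds, 3 lower and 3 opposite, with a median of 0.61. The class I gene H2-D1 had 500.1 and 492 CPM in Tyro3_OE and 564 and 517 in resistant libraries, against 224 and 214 in parental and 227 and 233 in Tyro3_KO libraries, a rise of 1.21 (SE 0.030). The nonclassical gene H2-T23 (Qa-1) had 11.8 and 12.4 CPM in parental, 18.6 and 18.5 in Tyro3_KO, 61.1 and 61.8 in Tyro3_OE and 60.1 and 58.8 in resistant libraries, and the Tyro3_OE and resistant libraries were at nearly 1 level. B2m, the light chain, rose by 0.89 (SE 0.030) and the peptide transporter genes Tap1 and Tap2 by 2.2 and 1.77. Class I genes share long stretches of sequence, so reads may have been split among them and their single values are uncertain. The 3 lower genes were Calr and Pdia3, chaperones of class I loading that also stand in the chaperone list, and the immunoproteasome gene Psmb10 (-0.87). Cd274, the ligand PD-L1, had 1.96 and 1.85 CPM in parental, 1.28 and 1.21 in Tyro3_KO, 10.8 and 9.10 in Tyro3_OE and 3.05 and 2.21 in resistant libraries. It rose in both backgrounds, by 2.38 (SE 0.22) in the parental and 1.07 (SE 0.27) in the resistant background, more in the parental one (adjusted p of the difference 0.00233), at levels of a few CPM.

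The promoters of H2-T23 and B2m are shown with a part of the interferon response element, searched on both strands as GAAA, any 2 bases and GAAA. H2-T23 lies at chr17:36032652-36032951 (minus strand) and B2m at chr2:122147437-122147736 (plus strand).
H2-T23: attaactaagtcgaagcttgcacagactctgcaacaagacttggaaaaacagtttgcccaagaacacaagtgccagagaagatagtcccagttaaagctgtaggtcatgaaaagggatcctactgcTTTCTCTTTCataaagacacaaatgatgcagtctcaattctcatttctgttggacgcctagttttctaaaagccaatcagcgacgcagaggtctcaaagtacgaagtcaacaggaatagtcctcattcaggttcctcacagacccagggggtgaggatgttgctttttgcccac
B2m: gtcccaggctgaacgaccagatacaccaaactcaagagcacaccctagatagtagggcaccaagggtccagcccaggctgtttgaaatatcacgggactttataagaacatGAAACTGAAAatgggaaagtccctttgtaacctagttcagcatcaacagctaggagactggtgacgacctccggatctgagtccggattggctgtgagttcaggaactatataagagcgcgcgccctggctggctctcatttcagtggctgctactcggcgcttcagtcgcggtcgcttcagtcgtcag
Of 50 members of the interferon and class I lists 38 were in the table, and 15 held the motif (39.5%, beside 3.99% of all genes).

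**Figure D3:**
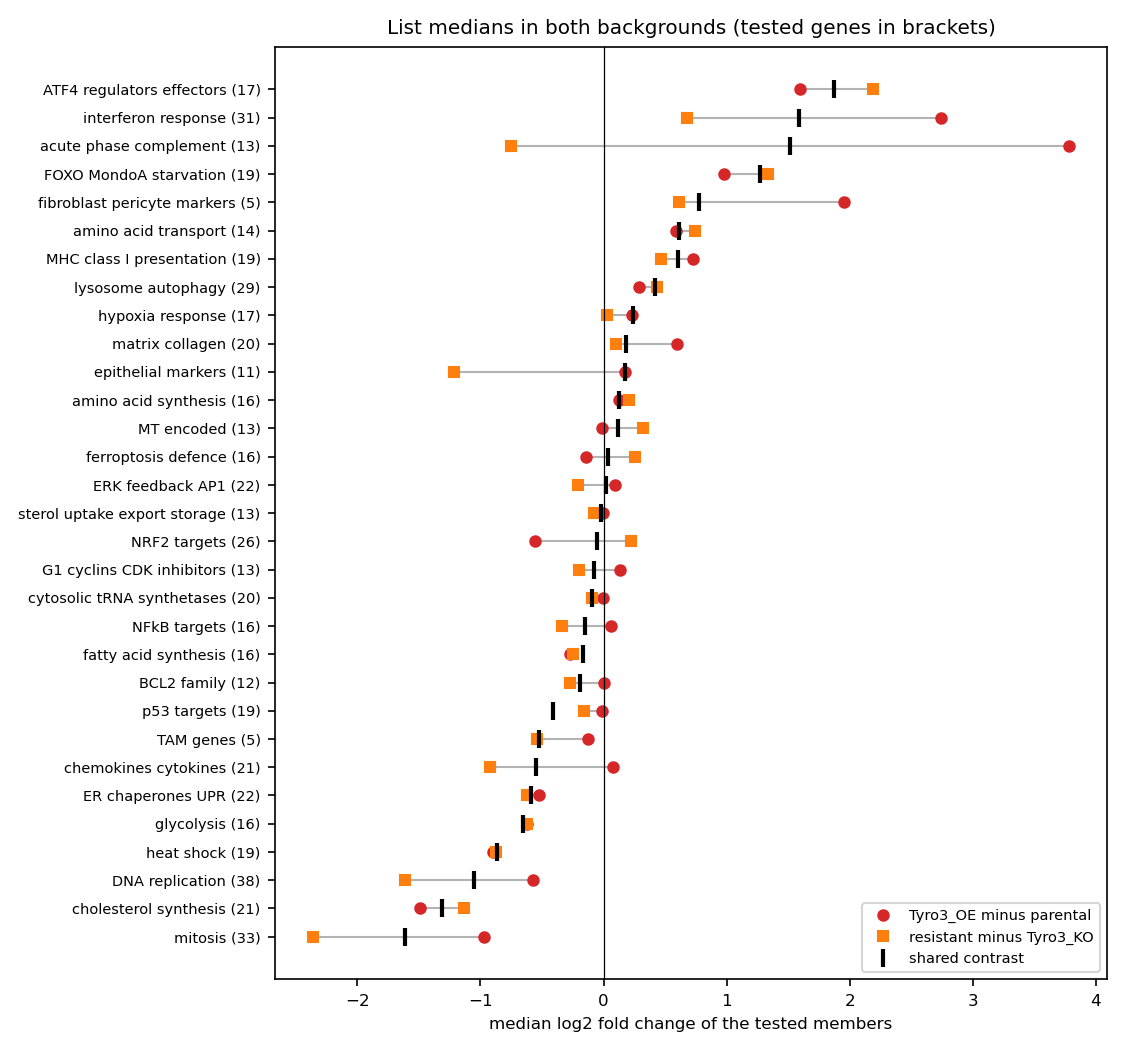
Median log2 fold change of the tested members of each list with at least 5 tested genes, in the parental background (circles), in the resistant background (squares) and in the shared contrast (black ticks). Cholesterol, heat shock and glycolysis lists have negative medians in both backgrounds, mitosis and replication lists are lower in the resistant one, and interferon and acute phase lists are higher in the parental one.

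Inflammatory groups lay largely off the shared contrast. In the acute phase and complement list 4 of 13 tested genes, of 17 listed, were higher in both backgrounds and 6 were called in opposite directions, with medians of 3.78 and -0.75, and 37.4% of the sum of squares on the shared contrast. Those higher in both, beside Lbp, included the complement gene C4b (3.83 (SE 0.14)) and the copper oxidase gene Cp (1.5 (SE 0.030)). Lcn2, an iron-scavenging lipocalin, had 59.98 and 60.4 CPM in parental, 524 and 494 in Tyro3_KO, 908 and 919 in Tyro3_OE and 24.9 and 23.5 in resistant libraries. The Tyro3_OE and Tyro3_KO libraries were the high ones, so the change was 3.92 (SE 0.047) in the parental and -4.4 (SE 0.052) in the resistant background. Of 16 tested NF-kB targets, of 18 listed, 4 were lower in both (25%, the share being 25.9% over all tested genes) and 6 opposite (37.5%, beside 6.55%). Tnfaip3 (A20) and Ier3, both feedback genes of this pathway, were the largest falls of that list, at -1.77 and -1.81. By the test within it 7 NF-kB targets were higher in the parental background, and 1, Relb, was called higher in the shared contrast (0.5). Of 21 tested chemokines and cytokines, of 28 listed, 2 were higher, 3 lower and 7 opposite, with a median of -0.55 (-0.50 with Cxcl2 at its bound). Cxcl10, an interferon-induced chemokine, and Tgfb2 rose by 1.74 and 1.1, and Il1a fell by 2.79. The chemokine gene Ccl2 fell in the resistant background by its own test (0.057 and -5.16 in the parental and resistant background, adjusted p of the difference 8.04e-31), with 68.6 and 61 CPM in Tyro3_OE and 1.5 and 1.89 in resistant libraries, against 61.8 and 62.7 in parental and 58.4 and 63.2 in Tyro3_KO libraries.

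Matrix, signalling and remaining lists gave mixed counts. Of 20 tested matrix genes, of 26 listed, 8 were higher and 2 lower in both (40% and 10%, beside 22.5% and 25.9% of all tested genes), and the higher count ranged from 6 to 10 over the other settings. Col6a2 rose by 3.55 (SE 0.27), fibronectin (Fn1) by 1.41, and Tnc, the tenascin C gene, was at -2.59 (SE 0.15). Of 22 ERK feedback and AP-1 genes, all tested, 5 were higher, 5 lower and 7 opposite. The first 2 counts are 22.7% each, close to 22.5% and 25.9% of all tested genes, and the higher count was 3 without Tyro3_OE replicate 2. The ERK feedback gene Spry1 rose by 1.83 (SE 0.079), and Fosl1, an AP-1 factor downstream of ERK, had 98.9 and 103 CPM in Tyro3_OE and 77.2 and 72.1 in resistant libraries, against 293 and 312 in parental and 194 and 178 in Tyro3_KO libraries, a change of -1.45 (SE 0.034). Of the 13 mitochondrially encoded genes 3 were higher in both (5 with upper-quartile scaling) and 0 lower (2 without resistant replicate 1), with 7 higher and 3 lower in the shared contrast. Epithelial markers went from summed levels of 1001 to 1019 CPM in parental and 859 to 876 in Tyro3_KO libraries to 915 to 922 in Tyro3_OE and 546 to 581 in resistant ones. Of 11 tested, of 13 listed, 1 was higher (Cldn4), 2 lower (Krt8 and Krt19) and 4 opposite, with a median of 0.17 (-0.64 with Krt14 at its bound). These counts turned on single libraries: the higher count was 2 without resistant replicate 2 and 0 without Tyro3_KO replicate 1, and the lower count was 1 without Tyro3_OE replicate 1. Dsp, a desmosome gene, had 42.2 and 39.6 CPM in Tyro3_OE and 2.48 and 3.07 in resistant libraries, against 38.5 and 41.9 in parental and 52.7 and 57.4 in Tyro3_KO libraries. Fibroblast and pericyte markers summed to 97.4 to 107 CPM in parental and Tyro3_KO libraries and to 176 to 213 in the others. Of 5 tested, of 11 listed, 2 were higher in both and 2 opposite. Macrophage markers summed to 59.3 to 65.0 CPM in parental and Tyro3_KO and to 27.6 to 43.6 in the others, most of it Cd14. Of 3 tested, of 11 listed, 2 were lower in both (Cd14 and Mrc1). The remaining 1 was called higher in the shared contrast (0.59) and in the parental background, and was not called higher in the resistant one. Endothelial markers summed to 6.89 to 11 CPM, with 2 of 9 tested and 1, Tie1, lower in both. The part of these marker sums in the results was not tested.

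Several genes lay on the shared contrast with almost no remainder, and were picked for the size of that share. Sned1, a matrix protein gene, had 45.8 and 46.4 CPM in Tyro3_OE and 39.1 and 41.5 in resistant libraries, against 5.64 and 7.75 in parental and 6.72 and 6.31 in Tyro3_KO libraries, and 99.7% of its sum of squares was on the shared contrast (2.7 (SE 0.074)). The phospholipid transfer gene Pltp rose by 2.1 (SE 0.082). Fxyd5, a sodium pump regulator known as dysadherin, had 23.7 and 23 CPM in Tyro3_OE and 20.6 and 19.6 in resistant libraries, against 96.6 and 110.5 in parental and 125 and 113 in Tyro3_KO libraries, a change of -2.36 (SE 0.049). Over all tested genes 3370 had an absolute shared change of at least 1, and 1410 of those had more than 90% of their sum of squares on the shared contrast. Other genes changed the same way but unequally. Fam129a, a stress-induced gene also called Niban, had 209 and 217 CPM in Tyro3_OE and 187 and 169 in resistant libraries, against 25.8 and 23.2 in parental and 60.9 and 66.4 in Tyro3_KO libraries, a rise of 3.13 (SE 0.062) in the parental and 1.49 (SE 0.053) in the resistant background. Tpt1, a translationally controlled growth protein gene, had 2733 and 2748 CPM in Tyro3_OE and 5512 and 5350.1 in resistant libraries, against 1756 and 1773 in parental and 1622 and 1660.4 in Tyro3_KO libraries, with resistant libraries highest. Tagln2, an actin-binding protein gene, had 494 and 489 CPM in Tyro3_OE and 189 and 176 in resistant libraries, against 820.5 and 813 in parental and 1084 and 1061 in Tyro3_KO libraries, with resistant libraries lowest.

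**Figure D4:**
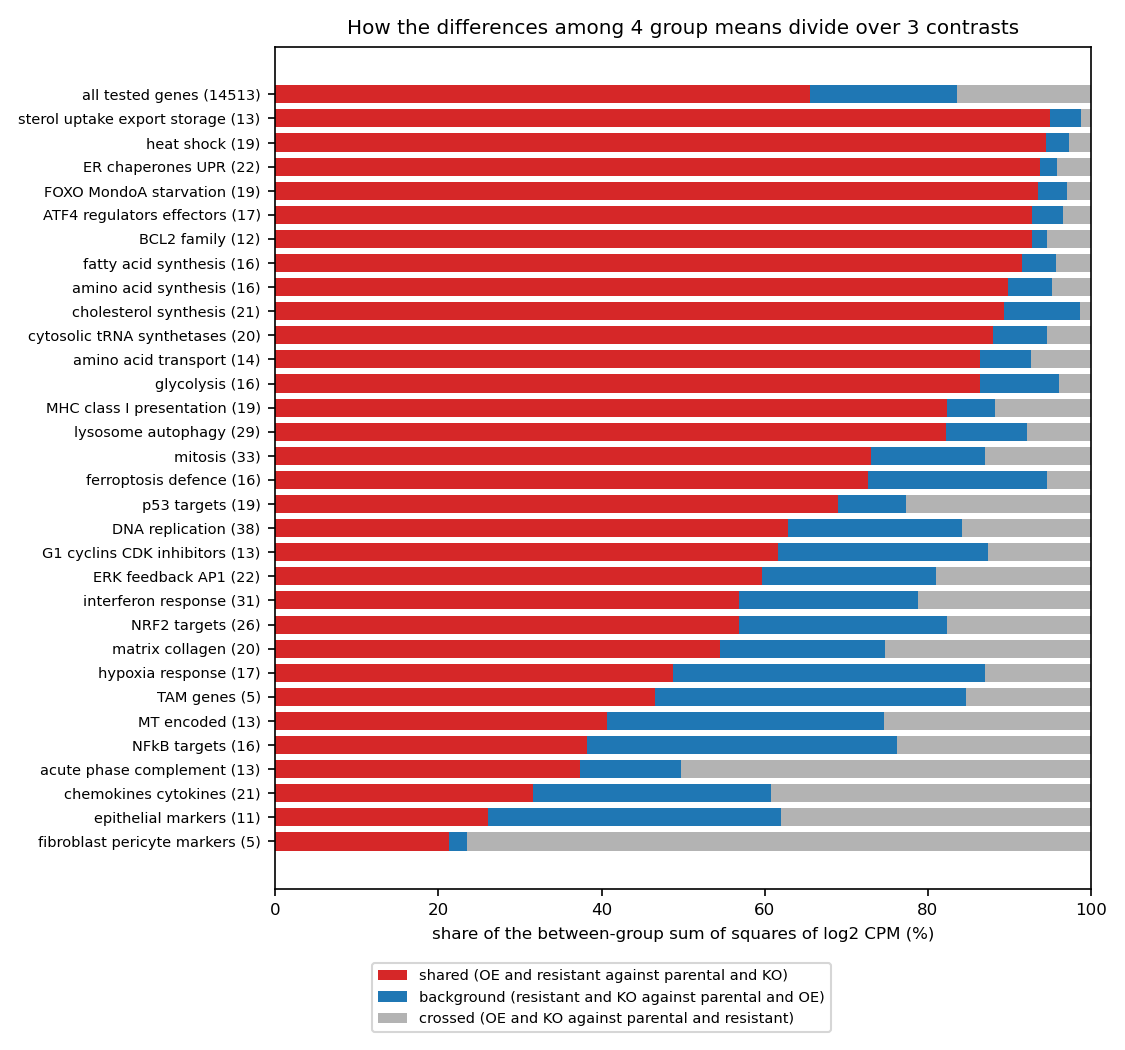
Bars divide the between-group sum of squares of log2 CPM, in percent, over the shared, background and crossed contrasts for each list with at least 5 tested genes and for all tested genes. Sterol uptake, heat shock and endoplasmic reticulum chaperone lists have over 90% on the shared contrast, all genes 65.5%, and acute phase genes 37.4%.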

How the data were processed

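Total RNA of mouse 4T1 cells was sequenced in 8 libraries, 2 in each of 4 groups that the labels define by phenotype and genotype. The authors deposited raw read counts per gene in 3 tables of 4 libraries each, per the file headers. The builds GRCm38 and mm10 and the tools CASAVA, STAR and DESeq2 are named, without role, in the submitters' processing notes, and how reads were counted, and by which strand rule, is not given in the sources used here, so overlapping and antisense genes are uncertain. A further 24 columns of per-sample values were not used.

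The tables were joined on the gene identifier into 24677 genes (20265 in every table). Genes that a table leaves out count as 0 there, since such genes reached at most 1 read, and 24 symbols that a spreadsheet had made into dates were restored. The test was that of edgeR 4.0.16 on the deposited counts, run in R 4.3.3 (TMM, filterByExpr, glmQLFit, glmQLFTest) in 1 fit with a mean for each of the 4 groups, and p-values were adjusted by the Benjamini-Hochberg method over 14513 genes. A standard error is the fold change divided by the square root of F. The sum of squares between the 4 group means of log2 CPM (prior count 2) was divided over 3 orthogonal contrasts. The script was checked on simulated counts. Replicates differed by more than counting noise (chi-square over degrees of freedom 2.019 to 5.68). A floor of 3 reads per library, 0.1205 to 0.1661 CPM by group, stands for a group with no read, and covers counting error only.

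The members and the 34 lists were chosen with earlier results of these data known, so no list is independent evidence of its direction. No list was tested as a set. Of the 661 members 625 were found in the deposited counts, so an untested member was either absent there or removed for low counts. Genes were named by rule: Tyro3, Axl, Mertk, Pros1 and Cd274; 12 per direction, ranked by the smaller of their 2 within-background changes, among genes called in both backgrounds with libraries apart and at least 5 CPM; up to 5 per list by smallest p; and 5 per direction among opposite genes, unequal genes and genes with the largest share on the shared contrast. Other list members were chosen after their values were seen, as examples of a list. Some genes that these rules name are not reported here. Promoters came from RefSeq (GRCm38.p6).

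Alternatives covered scaling (RLE, upper quartile), the test (DESeq2 1.42.0), the filter (none, or 50 reads in at least 2 libraries), fits of 1 background alone, calls that also need a log2 change of 1 or more, a block for the replicate number, and leaving out 1 library at a time.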

Additional observations from a re-analysis of the deposited data

Results flagged for a closer look

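The difference between the 2 backgrounds, Tyro3_OE minus parental less resistant minus Tyro3_KO, was called for 6776 of the 14513 tested genes (46.7%) by edgeR's quasi-likelihood test, so the shared contrast averages unequal changes for many genes. In 950 genes (6.55%) the 2 differences were each called with opposite signs.

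The genes with the largest smaller change among those were higher in Tyro3_OE and lower in resistant cells, each against its own comparison group. They were Saa3, an acute phase protein gene, with a difference of 8.48 on the log2 scale, Lcn2 with 8.32, Acod1, the itaconate-making enzyme of activated myeloid cells, with 7.33, the laminin gene Lama4 and the chitinase-like gene Chil1 with 7.69. Saa3 had 2.08 and 1.80 CPM in parental, 20.9 and 25.4 in Tyro3_KO, 43.4 and 38.9 in Tyro3_OE and 0.973 and 1.76 in resistant libraries. Chil1 had 9.98 and 12.5 CPM in parental, 53 and 47.5 in Tyro3_KO, 51.2 and 57.2 in Tyro3_OE and 1.11 and 1.22 in resistant libraries. In both genes Tyro3_OE and Tyro3_KO were the high groups. Lama4 had a fitted difference of 7.97 that rested on 1 group, through which it passed the filter, with 12.5 and 10.2 CPM in Tyro3_OE and at most 0.356 CPM in the other libraries. Its resistant libraries held 2 reads against 14 in Tyro3_KO, a Tyro3_KO to resistant ratio of 6.88 (exact 95% interval of counting error 1.58 to 62.4). Its shared change, 1.35 and not called, was -0.23 without resistant replicate 1.

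In the other direction stood the keratin gene Krt7 with a difference of -5.47, the adrenomedullin gene Adm with -2.38, the small nucleolar ribonucleoprotein gene Nop10 with -1.90, Olfml2b with -2.57 and the tissue factor gene F3 with -1.67. Krt7 had 25 and 24.6 CPM in parental, 0.544 and 0.555 in Tyro3_KO, 9.66 and 8.66 in Tyro3_OE and 9.29 and 8.79 in resistant libraries. The parental libraries were high and the Tyro3_KO libraries low, with Tyro3_OE and resistant libraries at 1 level between them.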

How the results depend on the processing

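Of the 186 named genes none that was called changed sign in the shared contrast under the alternatives; other genes were not checked for this. When calls also needed a log2 change of 1 or more, the counts fell to 3282 for the shared contrast (1979 higher, 1303 lower), 2713 in the parental and 3937 in the resistant background, 1655 for the difference between them, 688 for the contrast of backgrounds, 1598 for resistant against Tyro3_OE and 629 for Tyro3_KO against parental cells. On that rule 1577 genes were called the same way in both backgrounds (999 higher, 578 lower) and 115 in opposite directions. Under the other settings these counts stayed within 1.5 times: genes called the same way in both, 7025 in the main fit, numbered 7025 with RLE scaling, 6297 with DESeq2, 6374 with no filter, 6670 with at least 50 reads and 6972 with 4 libraries alone. Leaving out 1 library gave 6421 to 6759, and 5387 of the 7025 genes (76.7%) were called without each library in turn. The correlation of the within-background differences, 0.576 in the main fit, was 0.580 with DESeq2, 0.218 with no filter, 0.645 with at least 50 reads and 0.492 to 0.520 with a library left out. The share of the sum of squares on the shared contrast, 65.5%, was 66.4% with upper-quartile scaling, 58.8% with no filter, 68.4% with at least 50 reads and 63.1% to 64.0% with a library left out. No filter and a library left out both bring in more genes of low counts (24677 and 15151 to 15364 genes tested). Upper-quartile scaling gave 6744 higher and 4505 lower genes in the shared contrast and 4228 higher and 2891 lower in both backgrounds, and it turned the sign of 4 list medians near 0: sterol uptake, export and storage to 0.13, tRNA synthetases to 0.053, G1 cyclins and CDK inhibitors to 0.071, and NRF2 targets to 0.089. With no filter the medians of TAM genes (0.75), macrophage markers (0.49), endothelial markers (0.26), G1 cyclins and CDK inhibitors (0.15) and ERK feedback and AP-1 genes (-0.016) had the other sign. So did sterol uptake with at least 50 reads (0.034) and without resistant replicate 2 (0.013), ERK feedback with some libraries left out (to -0.019), ferroptosis defence without parental replicate 2 (-0.0089), and endothelial markers with 7 of the 8 libraries left out in turn (0.070 to 0.99). Of 2600 values for 186 named genes 2590 kept their call status, and the others belonged to Acod1, Lama4, Adm, Nop10, F3 and Nfkb2. Direction was compared only where the main fit or the alternative called the gene. The shared change of Saa3, which was not called, ran from -0.073 to 0.348 with a library left out. Same-numbered libraries did not deviate together (correlations of -0.0014 to 0.0342). These values show no strong common deviation, and cannot tell whether the samples were handled in pairs. A fit with the replicate number as a block gave 11028 genes in the shared contrast. In both backgrounds it gave 6977, 3240 higher and 3737 lower, and 931 opposite. Depth limits genes under a few CPM, such as Fgf21, Mertk, Cd274 and the interferon genes, whose changes rest on few reads.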
